A study of Mus musculus with 6 samples.

Results

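Interleukin-33 (IL-33), IL-18 and IL-1 are alarm cytokines that act through one family of receptors, and 9 genes of that system were followed here in regulatory T (Treg) cells. The genes are Il1rl1, which encodes the IL-33 receptor ST2, Il18r1 and Il18rap for the IL-18 receptor chains, Il1r1 and Il1r2 for the IL-1 receptors, Il1rap for the accessory chain shared by the IL-1 and IL-33 receptors, Sigirr for an inhibitory member of the family, Myd88 for the adaptor inside the cell, and Areg for the growth factor amphiregulin. They were chosen by name as a receptor system, with earlier results of these libraries known, and each was taken as its transcript with the highest mean level. These are 9 of the 24453 gene symbols in the deposited table, and all 9 passed the filter on low values, which left 13621 genes to be tested.

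The cells were CD4+Foxp3+ Treg cells taken by flow sorting from female C57BL/6 mice labelled healthy, in 6 bulk RNA-seq libraries. The group called WT (3 libraries) has the genotype label WT Tg, which the sources used here do not explain, and the group called miR-27 Tg (3 libraries) overexpresses the microRNA miR-27a. The series text calls the overexpression specific to Treg cells and names a heterozygous Foxp3cre, a Cre recombinase driven by Foxp3, whose gene lies on the X chromosome. The labels do not say whether WT cells carry the same Cre, whether sorting was limited to cells that used it, the age of the mice, the tissue, or whether each library is a mouse of its own. The p-values below therefore rest on a spread between libraries that may be technical.

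The libraries held 34400000 to 42100000 counted reads, estimated from the steps between low values, and 1 read on a transcript of 1 kilobase was worth 0.238 to 0.290 RPKM (reads per kilobase of transcript per 10000000 reads counted). The hairpin gene Mir27a, which checks the labels, had 8 to 13 reads per WT library and 2206 to 2921 per miR-27 Tg library, and no library went against its label.

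ST2 and the IL-18 receptor are found on Treg cells of barrier tissues, where alarm cytokines released by damaged cells reach them. Each cytokine binds one receptor chain and then recruits a second, and the paired domains inside the cell bind MyD88, which passes the signal through IRAK kinases and TRAF6 to NF-kB and MAP kinases. Il1r2 lacks the signalling domain and acts as a decoy, while amphiregulin, made by Treg cells that receive IL-33 or IL-18, acts on the EGF receptor of epithelial and stromal cells during tissue repair.

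MicroRNAs bind messenger RNAs mainly through their seed, bases 2 to 8, so the mature miR-27 sequences (RefSeq, GRCm38.p6) are shown with the seed in capitals. The 2 forms share that seed, UCACAGU, and miR-27a is the form the series text names as overexpressed.
mmu-miR-27a-3p, chr8:84208727-84208747, plus strand: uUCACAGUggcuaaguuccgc
mmu-miR-27b-3p, chr13:63300760-63300780, plus strand: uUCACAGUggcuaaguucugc

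In the GENCODE M21 (GRCm38) 3′ UTR of the highest transcript, 0 of the 9 genes held a 7-base match to the seed. Of the 12021 tested genes with a searched 3′ UTR, 14.9% held one, and 9 genes are too few to set 0 apart from that share. The lengths searched ran from 24 bases in Il1r2 and 163 in Sigirr to 3246 in Il1rl1 and 3864 in Il1r1, against a median of 899 over the genes searched. The 6-base match, to bases 2 to 7, was found in Il1rl1 and in Il1r1, and in 42.8% of genes searched. The sites below are the only 6-base matches of the highest Il1rl1 transcript and the only match to all 7 seed bases in any transcript of the 9 genes. The latter lies in an alternative transcript of Il1rap. Capitals mark the bases that match, and all coordinates are GRCm38, plus strand.
Il1rl1 3′ UTR, chr1:40464336-40464365: cttgctctgtggCTGTGAggacgtccctta
Il1rl1 3′ UTR, chr1:40464734-40464763: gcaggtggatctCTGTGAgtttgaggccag
Il1rap alternative 3′ UTR, chr16:26724407-26724436: gtgcctcaggcaACTGTGAcctgaggacaa

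A match of letters is a description and shows no binding. Il1r1 held 3 matches of 6 bases, at chr1:40315543-40315572 and at 2 places beyond the end of its deposited transcript. The highest transcripts of the other 7 genes, Areg and Il18r1 among them, held neither kind, and the shorter Il18r1 transcripts held 1 match of 6 bases. That match is followed by an A, which is complementary to base 1 of miR-27a, outside the seed. An A also follows the Il1r1 match at chr1:40316714-40316743.

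Of the 9 genes, Il18r1 and Areg were lower in miR-27 Tg, 0 were higher and 7 did not pass the test (limma, adjusted p under 0.05 over all genes tested). Among all genes tested 0.653% were lower and 0.374% higher. In 5 of the 9, namely Il1rl1, Il18r1, Il18rap, Il1r2 and Areg, every WT library lay above every miR-27 Tg library, a pattern seen in 11.6% of all genes tested, and in 0 of the 9 did every miR-27 Tg library lie above WT, against 6.84%. Because the genes were chosen with earlier results known, these shares are a description. Of the 9, 0 were lower on leaving out WT replicate 1, WT replicate 3 or miR-27 Tg replicate 3, and 1, Il18rap, was lower on leaving out miR-27 Tg replicate 2. The 5 genes without overlap had an unadjusted p under 0.05 by limma, as did 1773 of the 13621 genes tested. The median log2 fold change was -0.53 over the 9 genes and -0.01 over all genes tested. In bulk RNA, fewer cells that use a gene and less RNA per cell cannot be told apart.

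**Figure D1:**
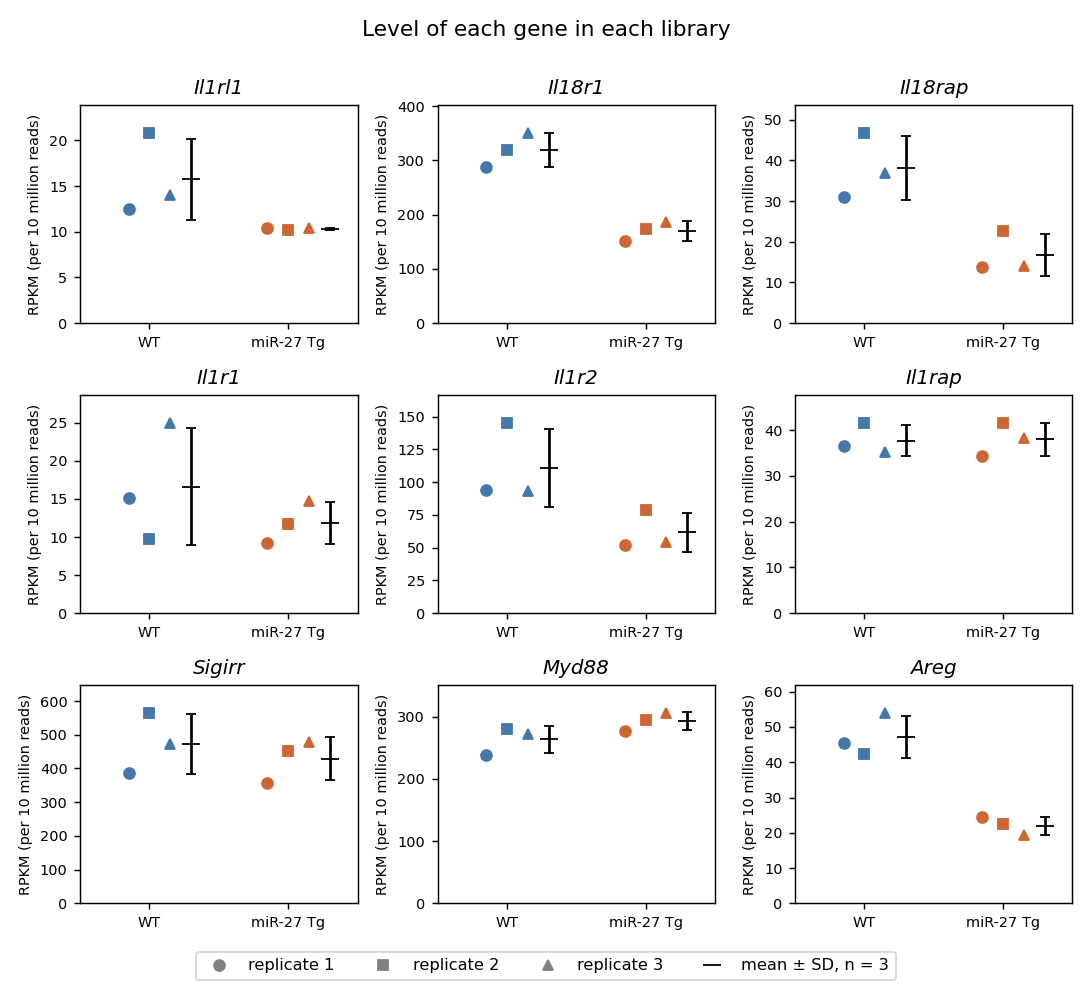
Level of each gene in each library in RPKM, with 1 panel and 1 scale per gene; points are libraries and bars are group means with SD (n = 3). Il18r1, Il18rap, Il1r2, Il1rl1 and Areg have separate groups with WT above, and Il1r1, Il1rap, Sigirr and Myd88 overlap.

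Il18r1 encodes the chain that binds IL-18. Its transcript NM_008365 (mm10 chr1:40466006-40500854, plus strand) had, in the order of the replicate numbers used throughout, 287, 319 and 350.2 RPKM in WT and 151, 174 and 187 RPKM in miR-27 Tg. The groups were far apart, with the lowest WT library well above the highest miR-27 Tg library. Its mean fell from 319 ± 31.6 to 170.5 ± 18.2 RPKM (SD, n = 3), to 53.5% of the WT mean. The log2 fold change was -0.90 (SE 0.11, 95% interval -1.16 to -0.64, adjusted p = 0.0221 by limma), on the scale log2(RPKM + 1), from 2379 to 5469 reads per library. The call was lost, with the fold change kept between -0.97 and -0.83, on leaving out WT replicate 1 (adjusted p = 0.0521), WT replicate 3 (0.0789), or either replicate 2 (0.0589) or replicate 3 (0.0706) of miR-27 Tg.

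Il18rap encodes the second chain, without which IL-18 does not signal. NM_010553 (chr1:40515362-40551705, plus strand) had 31.1, 46.7 and 36.9 RPKM in WT and 13.7, 22.7 and 14.1 RPKM in miR-27 Tg. The groups did not overlap, and miR-27 Tg replicate 2 was the library nearest to WT. Means were 38.2 ± 7.88 and 16.8 ± 5.10 RPKM, so that miR-27 Tg was at 44.0% of WT. The log2 fold change of -1.16 (SE 0.23, 95% interval -1.69 to -0.63) missed the threshold (adjusted p = 0.0698 by limma), and without miR-27 Tg replicate 2 it was -1.38 and passed (adjusted p = 0.0483). Set against each other, Il18r1 exceeded Il18rap 9.24-, 6.84- and 9.48-fold in WT and 11.01-, 7.67- and 13.3-fold in miR-27 Tg, and these ratios overlapped.

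Il1rl1 encodes ST2, the receptor chain that binds IL-33. NM_001025602 (chr1:40439629-40465414, plus strand), its long membrane form, had 12.5, 20.8 and 14.0 RPKM in WT and 10.4, 10.2 and 10.4 RPKM in miR-27 Tg, from 186 to 432 reads per library. The miR-27 Tg libraries were nearly equal, with WT replicate 2 the highest and WT replicate 1 only a little above them. The means were 15.7 ± 4.42 and 10.3 ± 0.113 RPKM, and miR-27 Tg was at 65.7% of WT. The log2 fold change of -0.53 (SE 0.20, 95% interval -1.002 to -0.06) did not pass over all genes (adjusted p = 0.316 by limma). Without WT replicate 2 it was -0.33 (adjusted p = 0.598).

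Il1rap encodes the accessory chain that ST2 and the IL-1 receptor both recruit. NM_008364 (chr16:26581705-26717748, plus strand) had 36.5, 41.4 and 35.2 RPKM in WT and 34.2, 41.5 and 38.3 RPKM in miR-27 Tg. The groups lay on top of each other, with means of 37.7 ± 3.28 and 38.0 ± 3.63 RPKM. The log2 fold change was 0.01 (SE 0.13, 95% interval -0.29 to 0.31, adjusted p = 0.988 by limma), and the interval does not reach the size of the Il18r1 difference. Leaving out WT replicate 1, WT replicate 3 or miR-27 Tg replicate 2 turned its sign (-0.01, -0.04 and -0.05), so it has no direction here. A predicted gene, Gm20319, shares 7.81% of its exonic bases. Il1rap exceeded Il1rl1 2.93-, 1.995- and 2.52-fold in WT and 3.28-, 4.06- and 3.69-fold in miR-27 Tg, so the ratio was higher in every miR-27 Tg library.

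Il1r2 encodes the decoy that takes up IL-1 without signalling, and it was the more abundant IL-1 receptor in every library. NM_010555 (chr1:40084768-40125226, plus strand) had 93.8, 145 and 93.4 RPKM in WT and 52.0, 79.1 and 54.0 RPKM in miR-27 Tg. Replicate 2 was the highest of each group, and the groups did not overlap. Means were 111 ± 29.6 and 61.7 ± 15.1 RPKM, with miR-27 Tg at 55.7% of WT. The log2 fold change was -0.83 (SE 0.22, 95% interval -1.33 to -0.33, adjusted p = 0.145 by limma).

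Il1r1 encodes the IL-1 receptor that signals. NM_008362 (chr1:40225080-40316177, plus strand) had 15.1, 9.79 and 24.9 RPKM in WT and 9.17, 11.7 and 14.7 RPKM in miR-27 Tg. The groups overlapped, and WT held both a library near the bottom and the highest of all. Means were 16.6 ± 7.69 and 11.9 ± 2.76 RPKM (log2 fold change -0.38, SE 0.32, 95% interval -1.12 to 0.36, adjusted p = 0.697 by limma), and the interval covers both no difference and one as large as that of Il18r1. Leaving out WT replicate 2 gave -0.69, and leaving out WT replicate 3 gave -0.06. The decoy exceeded the signalling receptor 6.22-, 14.8- and 3.74-fold in WT and 5.67-, 6.74- and 3.68-fold in miR-27 Tg, with overlap. Set against the accessory chain, Il1r2 was 2.57, 3.50 and 2.65 times Il1rap in WT and 1.52, 1.91 and 1.41 times in miR-27 Tg, without overlap.

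Sigirr, which restrains signalling through the IL-1 receptor family, had the highest level of the 9 genes in both groups. NM_023059 (chr7:141091175-141100546, minus strand) had 385, 564 and 472 RPKM in WT and 356, 453 and 477 RPKM in miR-27 Tg. The groups overlapped over most of their range, with means of 474 ± 89.0 and 429 ± 64.1 RPKM (log2 fold change -0.14, SE 0.16, 95% interval -0.51 to 0.24, adjusted p = 0.803 by limma). Leaving out WT replicate 1 gave -0.28, leaving out WT replicate 2 gave -0.0031 and leaving out miR-27 Tg replicate 1 gave -0.0090. Sigirr was 1.34, 1.77 and 1.35 times Il18r1 in WT and 2.36, 2.60 and 2.56 times in miR-27 Tg, which did not overlap.

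Myd88 encodes the adaptor that all the signalling receptors of the family share. NM_010851 (chr9:119335988-119340040, minus strand) had 238, 279.7 and 272 RPKM in WT and 278, 295 and 305 RPKM in miR-27 Tg. Only the lowest miR-27 Tg library, replicate 1, fell within the WT range. Means were 263 ± 22.5 and 293 ± 14.0 RPKM (log2 fold change 0.15, SE 0.09, 95% interval -0.06 to 0.37, adjusted p = 0.578 by limma). Acaa1a shares 11.4% of the exonic bases of Myd88, and reads of the 2 strands were not told apart. Myd88 was below Il18r1 in every WT library (ratios of 0.828, 0.876 and 0.778) and above it in every miR-27 Tg library (1.84, 1.70 and 1.64).

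Areg encodes amphiregulin, the secreted product of the system. NM_009704 (chr5:91139599-91148432, plus strand) had 45.5, 42.3 and 53.9 RPKM in WT and 24.4, 22.4 and 19.2 RPKM in miR-27 Tg. Every WT library was well above every miR-27 Tg library, on 201 to 245 reads in the WT libraries and 80 to 112 in the transgenic ones. Areg fell from 47.2 ± 5.96 RPKM to 21.996 ± 2.58 RPKM, or 46.6% of the WT mean, with a log2 fold change of -1.07 (SE 0.15, 95% interval -1.41 to -0.73, adjusted p = 0.0257 by limma). The call was lost when genes under the filter were tested as well (adjusted p = 0.0558), and without WT replicate 1 (0.0793), WT replicate 3 (0.0870), miR-27 Tg replicate 2 (0.0627) or miR-27 Tg replicate 3 (0.0935). Fold changes under those settings were -1.09 to -0.97.

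**Figure D2:**
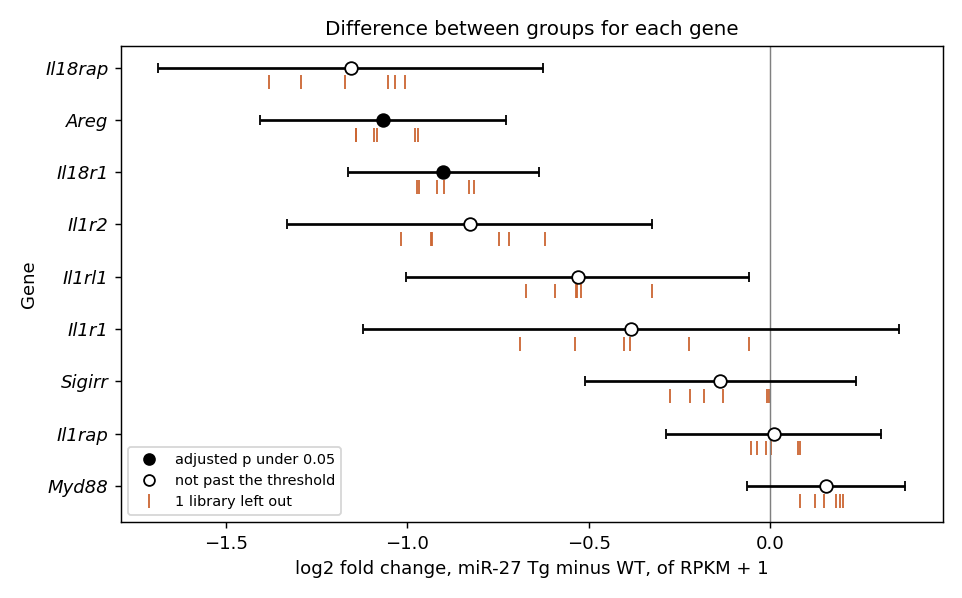
Log2 fold change of each gene, miR-27 Tg minus WT, on the log2(RPKM + 1) scale; points are estimates from limma over 3 libraries a group, bars are 95% intervals and the ticks under them are estimates with 1 library left out. Il18r1 (-0.90) and Areg (-1.07) passed the adjusted threshold, the Il18rap, Il1r2 and Il1rl1 intervals lie below 0 without passing it, and the other 4 intervals span 0.

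The called genes, Il18r1 and Areg, kept their ratio within the spread: Il18r1 was 6.31, 7.54 and 6.50 times Areg in WT and 6.19, 7.78 and 9.70 times in miR-27 Tg. Against Il1rl1, Il18r1 was 23.0, 15.4 and 25.0 times as high in WT and 14.4, 17.0 and 18.0 times in miR-27 Tg, again with overlap.

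**Figure D3:**
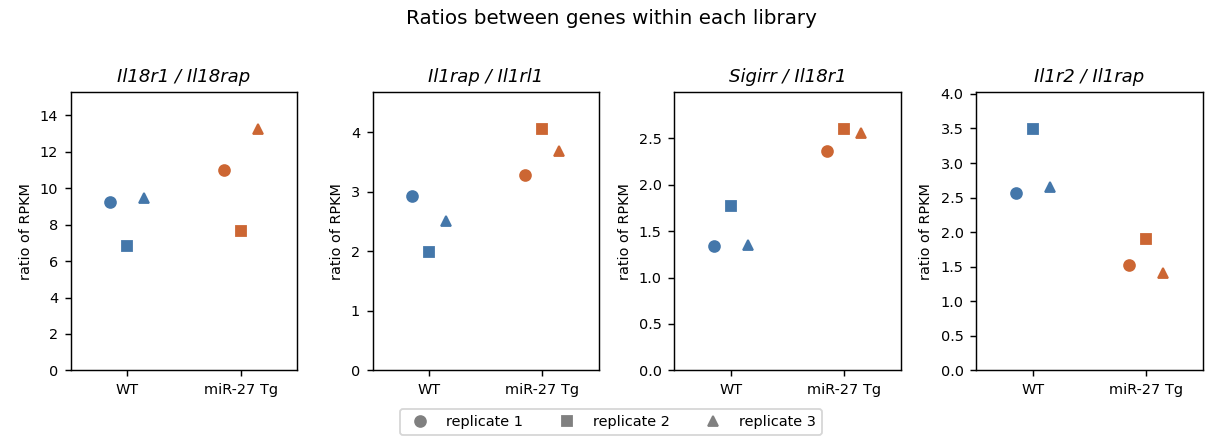
Ratio of RPKM between the genes of 4 pairs in each library, on linear axes from 0; points are libraries, with 1 symbol per replicate number. Il1rap over Il1rl1 and Sigirr over Il18r1 are higher in every miR-27 Tg library, Il1r2 over Il1rap is lower in each, and Il18r1 over Il18rap overlaps.

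In order of level per length, WT ran from Sigirr through Il18r1, Myd88, Il1r2 and Areg to Il18rap, Il1rap, Il1r1 and Il1rl1. The ranges of neighbours were separate from Sigirr down to Areg, and between Il1rap and Il1r1. They overlapped between Areg and Il18rap, between Il18rap and Il1rap, and between Il1r1 and Il1rl1. In miR-27 Tg the order was Sigirr, Myd88, Il18r1, Il1r2, Il1rap, Areg, Il18rap, Il1r1 and Il1rl1. There the ranges were separate as far as Areg, and overlapped from Areg to the end. Il18r1 and Myd88 thus changed places, and Il1rap moved above Areg and Il18rap.

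Transcripts of Il1rl1, Il18r1, Il1r1 and Il1rap were listed separately, 17 rows for the 9 genes, and a second fit over all 21055 transcript rows with a mean of at least 1 RPKM was used for them. Rows of one gene share exons, and a read in a shared exon was counted for each, so their values are not independent. Of the 17 rows 4 were lower, the 3 of Il18r1 and that of Areg, while 0.717% of all transcript rows were lower.

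Il1rl1 gives rise to soluble ST2, a secreted trap for IL-33 that ends early at chr1:40448411. Its row NM_010743 had 7.69, 11.4 and 9.02 RPKM in WT and 6.52, 5.50 and 5.98 RPKM in miR-27 Tg (log2 fold change -0.55, adjusted p = 0.256 by limma). The row of the same 3′ end that starts upstream, at chr1:40429570, had 8.38, 12.4 and 9.91 RPKM in WT and 6.90, 6.52 and 6.22 RPKM in miR-27 Tg (-0.56, adjusted p = 0.239). The long and soluble rows had nearly the same fold change, but reads in their shared exons count in both. The soluble form was therefore not measured apart from the long one. The long row was 1.62, 1.83 and 1.55 times the soluble row in WT and 1.60, 1.86 and 1.74 times in miR-27 Tg. These rows share 1188 exonic bases in GENCODE, with 4114 in the long form alone, and the long row held 178, 295 and 175 more reads than the soluble one in WT and 134, 128 and 126 more in miR-27 Tg.

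For Il18r1, the shorter rows NM_001161842 and NM_001161843 were lower too, with log2 fold changes of -0.87 (adjusted p = 0.0181 by limma) and -0.88 (adjusted p = 0.0175). The former had 230 to 279 RPKM in WT and 124 to 149 RPKM in miR-27 Tg. Of its 1919 exonic bases in GENCODE, 1327 are shared with NM_008365, so its call is not separate from that of the long row. For Il1rap, NM_134103, which lacks the membrane anchor, had 20.6, 25.4 and 19.5 RPKM in WT and 22.4, 25.3 and 21.1 RPKM in miR-27 Tg (0.07, adjusted p = 0.901). It shares 1182 of its 2306 exonic bases with NM_008364, so its values are not those of this form alone. The Il1rap row with the 7-base miR-27 match shown above, NM_001159318, had 12.4, 16.5 and 13.7 RPKM in WT and 14.0, 17.0 and 14.2 RPKM in miR-27 Tg (0.09, adjusted p = 0.887), with groups that overlapped. Of its 4438 exonic bases in GENCODE, 1476 are shared with NM_008364, and reads on the others, where the match lies, were not counted apart. These values therefore do not show the level of the transcript with the match. The other Il1rap row with the same end, NM_001159317, gave 0.09 (adjusted p = 0.882), and the second Il1r1 row NM_001123382 gave -0.40 (adjusted p = 0.658).

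Il1r2, Il1r1, Il1rl1, Il18r1 and Il18rap, 5 of the 9 genes, lie within 467 kilobases of chromosome 1, in a cluster of receptor genes. Its neighbours on the same stretch were compared with them. Map4k4, a kinase gene on the Il1r2 side, had 438 ± 11.9 RPKM in WT and 476 ± 26.1 RPKM in miR-27 Tg (log2 fold change 0.12, adjusted p = 0.621 by limma). Il1rl2, the IL-36 receptor inside the cluster, had 10.6 ± 1.99 and 8.01 ± 2.03 RPKM (-0.38, adjusted p = 0.566), and Mfsd9, beyond Il18rap, had 7.18 ± 2.03 and 5.47 ± 0.978 RPKM (-0.32, adjusted p = 0.649). Slc9a4 was listed at 0 in every library, and Slc9a2 and Tmem182 were under the filter. Of the 11 genes listed for this stretch 8 were tested, and Il18r1 was the 1 called.

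**Figure D4:**
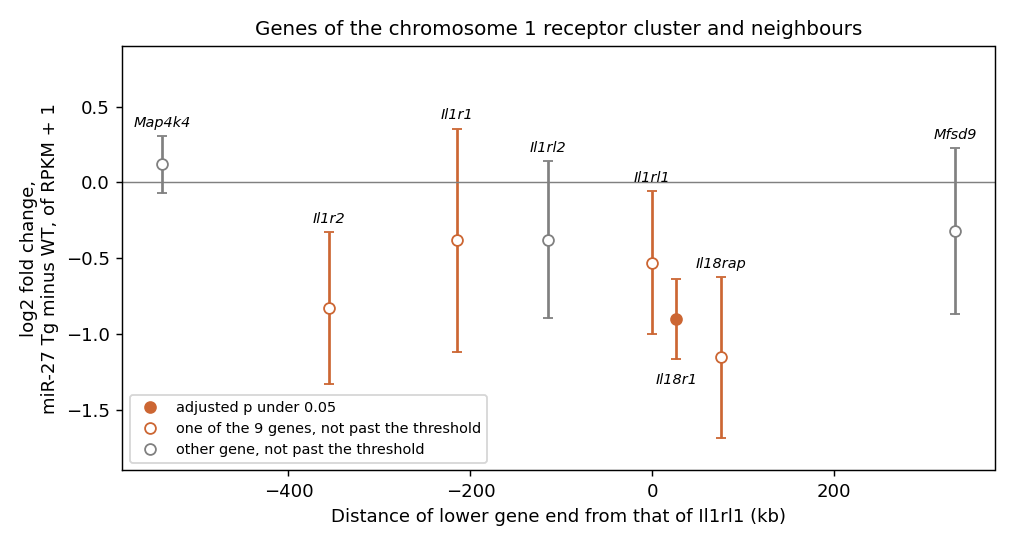
Log2 fold change (miR-27 Tg minus WT, log2(RPKM + 1) scale, bars 95% intervals) of the tested genes of the chromosome 1 cluster, by distance in kilobases of the lower gene end from that of Il1rl1. Il18r1, at 26.4 kilobases, and Il18rap, at 75.7, have the lowest values. Il1r1, which is 1 of the 9 genes, and Map4k4, Il1rl2 and Mfsd9 have intervals that span 0.

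Promoters are shown for Areg, which fell, and for Il1rl1, which has 2 starts. Each window runs from 250 bases before to 50 after a start (RefSeq, GRCm38.p6, plus strand). Capitals mark matches, on both strands, to TGACG (the core of the cyclic AMP response element) and AGATAA (bound by GATA factors). TGANTCA, bound by AP-1, was searched as well.
Areg, chr5:91139349-91139648: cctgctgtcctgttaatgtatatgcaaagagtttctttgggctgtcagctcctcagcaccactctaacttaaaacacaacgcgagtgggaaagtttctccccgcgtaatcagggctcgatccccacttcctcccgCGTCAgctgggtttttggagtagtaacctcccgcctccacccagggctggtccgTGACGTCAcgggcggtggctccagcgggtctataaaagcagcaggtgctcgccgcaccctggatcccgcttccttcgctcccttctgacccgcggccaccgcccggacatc
Il1rl1 upstream start, chr1:40429320-40429619: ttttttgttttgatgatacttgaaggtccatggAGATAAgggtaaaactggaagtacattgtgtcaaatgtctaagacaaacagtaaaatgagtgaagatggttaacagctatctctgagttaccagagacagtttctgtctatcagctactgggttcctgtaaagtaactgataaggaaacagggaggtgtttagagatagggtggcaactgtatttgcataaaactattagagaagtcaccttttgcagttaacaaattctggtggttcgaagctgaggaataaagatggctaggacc
Il1rl1 downstream start, chr1:40439379-40439678: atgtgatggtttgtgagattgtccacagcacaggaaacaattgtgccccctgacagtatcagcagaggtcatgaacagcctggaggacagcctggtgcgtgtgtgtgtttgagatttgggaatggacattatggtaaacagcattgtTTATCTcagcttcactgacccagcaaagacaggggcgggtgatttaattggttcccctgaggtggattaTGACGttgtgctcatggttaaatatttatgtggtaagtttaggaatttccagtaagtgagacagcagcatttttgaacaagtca

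In Areg the 2 matches nearest the start, on opposite strands, overlap to form TGACGTCA, from 61 to 54 bases before the start, and another match lies 115 to 111 bases before it. The upstream Il1rl1 window has AGATAA 217 to 212 bases before the start. The downstream one has it on the minus strand 103 to 98 bases before the start, and TGACG 34 to 30 bases before it. Of 32851 promoter windows 20.8% held TGACG, 11.2% AGATAA and 7.81% TGANTCA. Among 12 windows of 8 of the 9 genes, TGANTCA was found in 0 and any of the motifs in 4, the other being 1 of the Il1r1 windows. No binding was measured.

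The ligands and regulators around these receptors were read from a list of 15 genes, of which 7 were tested, with 0 higher, 0 lower and a median log2 fold change of -0.0016. Casp1, the protease that matures IL-1 beta and IL-18, had 167 ± 32.1 RPKM in WT and 104 ± 18.1 RPKM in miR-27 Tg (log2 fold change -0.68, adjusted p = 0.145 by limma). Il18bp, the soluble trap for IL-18, had 40.6 ± 1.47 and 58.4 ± 7.92 RPKM (0.51, adjusted p = 0.131). Il1b had 6.00 ± 1.42 and 12.8 ± 1.79 RPKM (0.995, adjusted p = 0.0886). Every WT library lay above miR-27 Tg for Casp1, and every miR-27 Tg library lay above WT for Il18bp and Il1b, without any of these 3 genes passing the test. Il1b is a gene of myeloid cells, and 17 myeloid marker genes summed to 177 to 429 RPKM in WT and 429 to 1005 RPKM in miR-27 Tg, whose part in its value was not tested. Il18 and Il33, the ligands themselves, were looked up after their values were seen. Il18 had 7.37 ± 0.697 and 7.21 ± 3.60 RPKM (-0.13, adjusted p = 0.927), and Il33 was at 0 to 0.283 RPKM in WT and 0 to 0.416 RPKM in miR-27 Tg, at most 4 reads.

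Downstream of MyD88, all 28 listed genes of the relay to NF-kB and MAP kinases were tested, and 0 were higher and 0 lower, with a median of -0.06. An unadjusted p under 0.05 by limma was reached by 2 genes of the relay, against 1773 of 13621 over all genes tested. Its most abundant members were Tnfaip3 (A20, which ends NF-kB signalling), at 3166 ± 768 RPKM in WT and 2721 ± 358 RPKM in miR-27 Tg (-0.20, adjusted p = 0.757 by limma), and Nfkbia (the inhibitor of NF-kB), at 2348 ± 233 and 2678 ± 378 RPKM (0.19, adjusted p = 0.635). Nfkbiz, a nuclear cofactor of NF-kB, had 795 ± 96.4 and 723 ± 55.0 RPKM (-0.13, adjusted p = 0.697). Tnfaip3, Nfkbia and Nfkbiz are known as genes that NF-kB induces.

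Of 15 Toll-like receptor and adaptor genes, whose receptors carry the same domain inside the cell, 13 were tested, with 0 called and a median of 0.14. Of the 13, 3 had an unadjusted p under 0.05 by limma, against 1773 of 13621 over all genes tested. Tlr1 had 379 RPKM in WT and 361 RPKM in miR-27 Tg (-0.06, adjusted p = 0.927 by limma), Unc93b1 had 103 and 144 RPKM (0.38, adjusted p = 0.723), and Tlr7 had 70.7 and 105.3 RPKM (0.55, adjusted p = 0.210). The Unc93b1 value rested on single libraries, with 0.026 without miR-27 Tg replicate 2 and 0.78 without miR-27 Tg replicate 1. Tlr7 and Unc93b1 are also used by myeloid and B cells, whose part was not tested.

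Around amphiregulin, 9 of 15 genes for EGF family ligands, their shedding and receptors were tested, with 0 called and a median of -0.05. Of these, 1 had an unadjusted p under 0.05 by limma, against 1773 of 13621 over all genes tested. Adam17, the protease that releases amphiregulin from the membrane, had 176 RPKM in WT and 181 RPKM in miR-27 Tg (0.03, adjusted p = 0.940 by limma). Rhbdf2, which carries Adam17 to the surface, had 36.6 and 44.5 RPKM (0.26, adjusted p = 0.616), and Adam10 had 241 and 228 RPKM (-0.08, adjusted p = 0.806). Areg was above each of the 7 other ligands listed in every library, and Hbegf, chosen after its values were seen, had 10.3 ± 2.24 and 9.75 ± 1.32 RPKM (-0.05, adjusted p = 0.955).

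ST2+ Treg cells of tissues are known for a set of genes, of which 30 were listed and 28 tested: 5 were lower, 0 higher and 23 not called, with a median of -0.48. Of the 28, 16 had an unadjusted p under 0.05 by limma, against 1773 of 13621 over all genes tested. The list was drawn up with earlier results of these libraries known, so its direction is not independent evidence. Those lower were Itgae (CD103, log2 fold change -2.05, adjusted p = 0.00534 by limma), Gzmb (granzyme B, -2.02, 0.0395), Tigit (an inhibitory receptor, -1.39, 0.0177), Ccr8 (a chemokine receptor of tissue Treg cells, -1.23, 0.0257) and Rora (a nuclear receptor, -1.11, 0.0292). Without WT replicate 1, WT replicate 3 or miR-27 Tg replicate 3 the count was 1, Itgae, without miR-27 Tg replicate 1 it was 3, and with genes under the filter tested too it was 2. Ccr8 had 85.2, 120 and 95.6 RPKM in WT and 35.1, 48.9 and 41.8 RPKM in miR-27 Tg. Rora had 62.2, 54.8 and 60.0 RPKM in WT and 23.2, 34.3 and 24.2 RPKM in miR-27 Tg. Gata3, the factor that maintains ST2 in these cells, had 187 RPKM in WT and 173 RPKM in miR-27 Tg (adjusted p = 0.840), and Klrg1, a surface marker of them, had 16.0 and 7.46 RPKM (adjusted p = 0.230). Gata3 and Klrg1 were chosen after their values were seen.

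**Figure D5:**
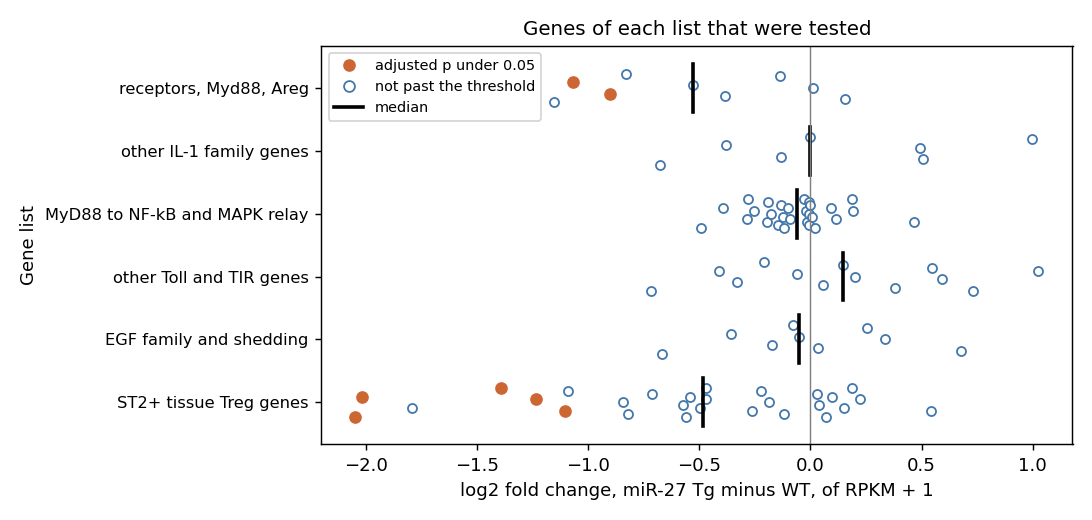
Log2 fold changes (miR-27 Tg minus WT, log2(RPKM + 1) scale) of the tested genes of each list, each point a gene (filled where it passed the adjusted threshold) and each bar a median. The tissue Treg list has its median at -0.48 and the MyD88 relay at -0.06, beside -0.53 for the 9 genes.

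Genes with the pattern most like that of Il1rl1 and Areg were found by Pearson r of log2(RPKM + 1) over the 6 libraries, among 10694 genes with a mean of at least 10 RPKM. The libraries fall into 2 groups, so r follows the group difference as well as the spread within groups, and it is a description. For Il1rl1 they were Gpld1 (r = 0.994), A630023P12Rik (0.983), 4933427D14Rik (0.983), Atp9b (0.981) and Setd4 (0.979). All 5 shared the high value of WT replicate 2 and the narrow miR-27 Tg range, with smaller fold changes of -0.38 to -0.16, and 0 of them passed the test. For Areg they were Farp1 (r = 0.991), Rap2b (0.990), Tmbim6 (0.988), Lpcat1 (0.986) and Rufy3 (0.986). Farp1 was the 1 of these that was lower, with 22.4 ± 3.004 RPKM in WT and 10.996 ± 1.146 RPKM in miR-27 Tg (a log2 fold change of -0.96, adjusted p = 0.0437 by limma), and on leaving out any 1 library that call was lost (adjusted p = 0.0741 to 0.146).

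Some of these receptors are also made by other cells, so marker genes were read in the same libraries. T and Treg markers (9 genes, 0 at 0, Foxp3, Cd4 and Cd3e high in all) summed to 12290 to 13208 RPKM in WT and 10925 to 11912 RPKM in miR-27 Tg, and 0 were called. Ctla4, the most abundant of them, had 3436 ± 324 RPKM in WT and 2335 ± 234 RPKM in miR-27 Tg (adjusted p = 0.0868 by limma). Of the 9 T and Treg markers, 6 had a fold change below 0, among them Ctla4 and Ikzf2, at 68.9% of its WT mean. The 3 above 0 were Foxp3, Cd4 and Il2ra, at 109%, 113% and 107% of their WT means. Group 2 innate lymphoid cells carry ST2, and their 11 markers, which include Il1rl1 itself and genes that Treg cells share such as Gata3 and Rora, summed to 312 to 341 and 217 to 289 RPKM, with Il5 and Il13 under a mean of 1 RPKM and Rora the 1 called. Mast cell and basophil markers (12 genes) summed to 12.6 to 18.4 and 17.4 to 25.9 RPKM, with Mcpt8 at 0 in every library, 7 under a mean of 1 RPKM and 0 called. Of the 17 myeloid markers 0 were at 0 in all libraries, and 13 of 14 tested had a fold change above 0. An unadjusted p under 0.05 by limma was reached by 13 of the 14, against 1773 of 13621 over all genes tested. Among the 14, Mmp9 was the 1 with a fold change below 0, and it reached that p too. Every miR-27 Tg library lay above WT for 7 of them, against 6.84% of all genes tested, and every WT library lay above miR-27 Tg for 1, Mmp9, against 11.6%. The 1 called was Itgam (CD11b), which was higher in miR-27 Tg (log2 fold change 1.69, adjusted p = 0.0118 by limma). Markers of B cells summed to 160 to 184 and 123 to 218 RPKM, with 0 called. Those of CD8 T and NK cells summed to 316 to 365 and 233 to 357 RPKM, but the genes differed in direction: Nkg7 (-0.93, adjusted p = 0.0257) and Xcl1 (-1.41, adjusted p = 0.0238) were lower, every WT library lay above miR-27 Tg for Ccl5 and Klrb1c and below it for Cd8b1, none of which passed the test. Of the 9 stromal and endothelial markers 6 were under a mean of 1 RPKM, with Pdgfra at 0, and Pecam1, which T cells also make, carried nearly all of their sum (480 ± 65.6 RPKM in WT and 627 ± 44.1 RPKM in miR-27 Tg, adjusted p = 0.191). All 3 tested had a fold change above 0, and 0 were called. Besides Pecam1 these were Cdh5 (3.48 ± 3.38 and 8.43 ± 6.44 RPKM) and Kdr (2.24 ± 1.86 and 7.82 ± 7.66 RPKM). The groups overlapped for Cdh5 and Kdr, and both were highest in miR-27 Tg replicate 2. The part of these cells in the values of the 9 genes, including Il1r2 and Areg, which myeloid cells also make, was not tested.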

How the data were processed

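RNA of 3 WT and 3 miR-27 Tg libraries was read from 1 table of RPKM values deposited by the authors. Per the file headers, HOMER counted reads of either strand over the exons of mm10 RefSeq transcripts, and RPKM was scaled to 10000000 reads per library; STAR 2.2.0c is named per the submitters' processing notes. Genes with overlapping exons share reads. Per symbol, the transcript with the highest mean was kept (24453 symbols), and genes with a mean of at least 1 RPKM were tested with limma 3.58.1 (R 4.3.3, intensity trend, two-sided) on log2(RPKM + 1), with Benjamini-Hochberg adjustment over 13621 genes and a threshold of 0.05. Fold changes on that scale understate low genes. No count model was used, since RPKM values are not counts; reads were recovered from the steps of low values, 100% of which were whole within 0.1 read. The fit was tested on simulated data. Levels are mean ± SD.

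The 9 genes and all lists were chosen with earlier results of these data known. Text names every gene of a pathway list past the threshold or, where fewer than 3 passed, the 3 of highest mean as well; marker genes were named after their values were seen, and others are said to be chosen after their values were seen. Il1rl2, Map4k4 and Mfsd9 are the tested neighbours in the chromosome 1 cluster. Alternatives were other pseudocounts (0.1 and 5), filters, transcripts, scalings, weights, a replicate block and leaving out each library.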

Additional observations from a re-analysis of the deposited data

How the results depend on the processing

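Over the 16 alternatives of the gene fit the log2 fold changes of 8 of the 9 genes kept their sign. Leaving out 1 library at a time gave -0.97 to -0.81 for Il18r1 (adjusted p = 0.0465 to 0.0789 by limma), -1.14 to -0.97 for Areg (0.0463 to 0.0935), -1.38 to -1.01 for Il18rap (0.0483 to 0.212) and -0.054 to 0.081 for Il1rap, whose sign turned without WT replicate 1 (-0.01), WT replicate 3 (-0.04) and miR-27 Tg replicate 2 (-0.054). In those fits 0 to 2 of the 9 genes were lower (0 without WT replicate 1, WT replicate 3 or miR-27 Tg replicate 3, and 1, Il18rap, without miR-27 Tg replicate 2), and 3 to 21 genes were higher and 2 to 46 lower over all genes, against 51 and 89 with every library; fewer samples were fitted. The tissue Treg list then had 1 to 6 genes lower, against 5. Without the filter on mean RPKM, with more genes tested, 15 genes were higher and 33 lower, and 1 of the 9 was lower, since Areg (-1.07) had adjusted p = 0.0558, and 2 of the tissue Treg list. The refits covered the list genes named with fold changes and Farp1, not the other genes of similar pattern or the marker genes. In them the sign turned for 5 genes that were not called: leaving out 1 library at a time gave -0.43 to 0.27 for Il18, -0.16 to 0.10 for Tlr1, -0.043 to 0.080 for Adam17, -0.23 to 0.061 for Hbegf and -0.25 to 0.020 for Gata3, and array weights gave 0.048 for Tlr1. Array weights gave 81 genes higher and 144 lower; the cause was not tested.

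Same-numbered libraries had correlated deviations of 0.368, 0.0971 and 0.0368. With 3 libraries a group, these values cannot decide whether equal numbers mark paired samples, and the labels do not say. The main fit took the groups as unpaired. Replicate 1 of each group correlated best with its own number. The best match of WT replicate 2 was miR-27 Tg replicate 3 (0.154), and that of WT replicate 3 was miR-27 Tg replicate 2 (0.119). With the replicate block 91 genes were higher and 185 lower, and 4 of the 9 were lower, Il18rap (-1.16, adjusted p = 0.0195 by limma) and Il1r2 (-0.83, adjusted p = 0.0187) besides Il18r1 and Areg. Scalings moved the median of all genes by under 0.1 on the log2 scale. Depth limits Areg most, with 80 reads in its lowest library.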

Other observations

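Some mast cell protease genes had their highest values in 1 library. In miR-27 Tg replicate 1, Mcpt4 had 6.95 RPKM (26 reads), Cma1 4.42 RPKM (18 reads) and Tpsb2 2.68 RPKM (11 reads). In the other 5 libraries Cma1 and Tpsb2 were at 0, and Mcpt4 had 1 read, in miR-27 Tg replicate 2. Cpa3, another protease gene of mast cells, was at 2.42 to 3.87 RPKM in all 6 libraries, and Mcpt8 was at 0 in all. Mast cells carry ST2, and their part in the Il1rl1 values was not tested. Cd180 and Tlr9, receptors of B and myeloid cells, were highest in miR-27 Tg replicate 2, at 58.4 and 24.6 RPKM, against at most 21.5 and 9.88 RPKM in the other 5 libraries.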
